A study of Mus musculus with 3 samples.

Results

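The globin and erythroid genes described here are 10 genes that mark red blood cells, and they were chosen by name: the adult globins Hba-a1, Hba-a2, Hbb-b1 and Hbb-b2, the embryonic globins Hba-x, Hbb-bh1 and Hbb-y, and the erythroid genes Alas2, Slc4a1 and Hemgn. Every non-control probe carrying one of these symbols was taken, which gave 11 of the 55681 non-control probes on the array (2 for Hbb-y and 1 for each of the others). Dorsal cortex RNA of mice at postnatal day 4 was compared on 3 arrays with 2 colours. Each array held 1 wild-type pup in Cy3 and 1 Brpf1-deficient pup in Cy5, according to the labels, and no array had the dyes exchanged, so a dye effect on a probe and a genotype effect cannot be told apart. The labels record no treatment, and give neither the strain, nor the way in which Brpf1 was inactivated and in which cells, nor which pups were littermates. The p-values and intervals below come from limma, which joins a probe's spread between these 3 pairs with the spread of all probes. The part from all probes counts as 5.44 degrees of freedom, more than the 3 pairs supply. A probe of wide spread thus gets a smaller p-value than its own spread alone would give.

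Brpf1 encodes a scaffold protein of histone acetyltransferase complexes. On arrays 1, 2 and 3 its probe had a log2 ratio (Cy5 over Cy3) of 0.63, 0.73 and 0.97, brighter in the channel labelled deficient. The authors' deposited table gives it a log2 fold change of -0.80. All 5557 probes that passed the test here have the opposite sign in that table, so the sign there is not particular to Brpf1. The sources used here do not say whether the probe covers deleted sequence. Directions are therefore given by channel, as labelled, and which genotype they belong to is not settled. All 15 genes of a dorsal cortex marker list, among them Neurod6, Tbr1 and Lhx2, passed the filter on dim probes; 7 were called brighter in Cy5 and 2 in Cy3, with a median of 0.21, so markers of the tissue itself also differed between the channels. Of the 32981 probes that passed it, 16.8% were called, 7.48% brighter in Cy5 and 9.37% brighter in Cy3 at a limma adjusted p under 0.05. No spot was saturated. Among the dorsal cortex markers, Emx1 varied most, with log2 ratios of 0.65, -2.72 and -2.65 on arrays 1, 2 and 3. Its mean was -1.58 ± 1.92 (SD, n = 3 arrays, limma adjusted p = 0.103), so it was not called. Emx1 was thus brighter in Cy5 on array 1 and in Cy3 on arrays 2 and 3. Its Cy5 signal was well above background on only 2 arrays. What set array 1 apart for this gene was not tested.

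Haemoglobin is a tetramer of a pair of alpha-type and a pair of beta-type chains, each carrying a haem group. In the mouse, Hba-x, Hbb-bh1 and Hbb-y are used by the primitive red cells of the yolk sac, and Hba-a1, Hba-a2 and the adult beta genes by the definitive red cells that replace them before birth. Alas2 makes the first intermediate of haem in red cell precursors, Slc4a1 (band 3) exchanges chloride and bicarbonate across the red cell membrane, and Hemgn encodes a nuclear protein of blood-forming cells. Mammalian red cells lose their nucleus, and young ones still carry globin mRNA, so RNA from a tissue that contains blood vessels also contains globin transcripts.

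RefSeq promoter sequences on GRCm38.p6 were at hand for 6 of the 10 genes. Those of 5 are shown, as the 250 bases before the annotated start, 5′ to 3′ on the gene's strand. The adult alpha genes show how alike the duplicated pair is, Hba-x is their embryonic neighbour, Alas2 is an erythroid gene whose ratios had the same order over the arrays as those of the beta globins, and Hemgn is one whose ratios did not. Capitals mark 4 short motifs on either strand: GATAA, the core bound by GATA factors, CACCC, the core bound by KLF factors, CCAAT, and TATAA, the core of the TATA box. Where matches overlap, as the pair of TATAA matches on opposite strands in Alas2 does, the capitals run together.
Hba-a1: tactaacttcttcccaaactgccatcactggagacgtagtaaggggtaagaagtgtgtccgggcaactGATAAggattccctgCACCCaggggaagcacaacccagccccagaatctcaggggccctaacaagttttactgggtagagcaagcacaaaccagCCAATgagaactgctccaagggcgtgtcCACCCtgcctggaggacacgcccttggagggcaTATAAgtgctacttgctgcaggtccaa
Hba-a2: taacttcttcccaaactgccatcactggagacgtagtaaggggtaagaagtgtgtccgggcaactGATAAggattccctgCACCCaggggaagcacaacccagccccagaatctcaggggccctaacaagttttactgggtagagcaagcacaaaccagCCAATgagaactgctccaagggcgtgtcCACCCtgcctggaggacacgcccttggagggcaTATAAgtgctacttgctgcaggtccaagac
Hba-x: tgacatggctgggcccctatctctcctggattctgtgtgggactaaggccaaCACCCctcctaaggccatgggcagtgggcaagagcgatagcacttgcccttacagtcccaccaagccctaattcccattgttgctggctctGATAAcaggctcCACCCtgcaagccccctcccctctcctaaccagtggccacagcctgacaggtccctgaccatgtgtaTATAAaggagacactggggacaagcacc
Alas2: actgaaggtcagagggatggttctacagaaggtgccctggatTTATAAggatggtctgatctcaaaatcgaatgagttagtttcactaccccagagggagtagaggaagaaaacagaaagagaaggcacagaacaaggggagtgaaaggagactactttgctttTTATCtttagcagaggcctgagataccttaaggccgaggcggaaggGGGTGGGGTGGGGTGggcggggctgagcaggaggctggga
Hemgn: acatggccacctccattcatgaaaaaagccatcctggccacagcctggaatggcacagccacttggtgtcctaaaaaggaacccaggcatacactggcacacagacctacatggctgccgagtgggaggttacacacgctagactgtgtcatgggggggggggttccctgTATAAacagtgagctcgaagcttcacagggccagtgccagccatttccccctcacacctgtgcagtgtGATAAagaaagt
The windows lie at chr11:32283422-32283671 (Hba-a1), chr11:32296242-32296491 (Hba-a2) and chr11:32276350-32276599 (Hba-x), all on the plus strand, at chrX:150547167-150547416 on the plus strand (Alas2) and at chr4:46404184-46404433 on the minus strand (Hemgn).

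The promoter windows of Hba-a1 and Hba-a2 shared a run of 247 identical bases, offset by a few bases, and so held the same motifs: 1 GATAA, 2 CACCC, 1 CCAAT and 1 TATAA. Hba-x held 1 GATAA, 2 CACCC and 1 TATAA and no CCAAT, and its longest run shared with Hba-a1 was 10 bases. Alas2 held 1 GATAA and 3 CACCC, the latter in a row on the opposite strand, and 1 TATAA on each strand. Hemgn held 1 GATAA and 1 TATAA and no CACCC. Such short motifs are common: among 32851 promoter windows of this length, 22.6% held GATAA, 52% CACCC, 33.8% CCAAT and 22.8% TATAA, so a match is a description of the letters only.

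The probes do not separate all of the genes. In the authors' deposited table, the probe named Hba-a1 and the probe named Hba-a2 each list both alpha genes as targets, the Hbb-b1 probe also lists Hbb-bs, and the Hbb-b2 probe also lists Hbb-b1. Hbb-bs and Hbb-bt are the adult beta genes of another haplotype of the beta-globin locus, and which haplotype these pups carried is not given. The alpha probes are therefore best read as 1 measurement of adult alpha globin, made on 2 spots, and the beta probes as measurements of adult beta globin of uncertain gene. No probe was named Hbb-bs.

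Adult alpha globin was brighter in Cy5 on every array and passed the test. The median spot intensity of Hba-a1, in scanner units before any correction, was 55907, 41680 and 24728 in Cy3 and 231697, 160013 and 188077 in Cy5 on arrays 1, 2 and 3, over local backgrounds of 48 to 79 in Cy3 and 119 to 168 in Cy5. After normalization the log2 ratios were 0.88, 0.71 and 1.73, with a mean of 1.10 ± 0.55 (SD, n = 3 arrays), or 2.15-fold. The 95% interval was 0.69 to 1.52 on the log2 scale and the limma adjusted p was 0.0129. Both rest on a moderated standard error of 0.177, although 99.49% of the kept probes had a smaller SD, so they understate this probe's own spread. Array 3 had the largest ratio and also the lowest Cy3 signal, while its Cy5 signal lay between those of the other arrays. The Hba-a2 probe gave 0.93, 0.68 and 1.70, a mean of 1.10 ± 0.53 and an adjusted p of 0.0124. Its log2 ratio differed from that of the Hba-a1 probe by 0.05 or less on each array. In RNA from whole tissue, fewer red cells and less globin RNA per red cell cannot be told apart.

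The alpha probes were among the brightest on the array, and brightness moved with the ratio. Of the probes that passed the filter, 98.4% were dimmer than Hba-a1 and 98.9% dimmer than Hba-a2. Among the 791 other probes within 0.5 log2 units of the brightness of Hba-a1, the median log2 ratio was 0.16, with the middle 50% of probes between 0.01 and 0.28, and 24.4% were called brighter in Cy5. For Hba-a2 the 701 such probes had a median of 0.21, and 33.7% were called. After the median of each of 50 brightness bins was set to 0 on each array, the mean log2 ratio was 0.90 for Hba-a1 (adjusted p = 0.0339) and 0.83 for Hba-a2 (adjusted p = 0.0257). No alpha probe passed with plain background subtraction or with the processed signals of the scanner software. The mean log2 ratio of Hba-a1 was then 1.02 (adjusted p = 0.0735) and 0.89 (adjusted p = 0.0801).

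**Figure D1:**
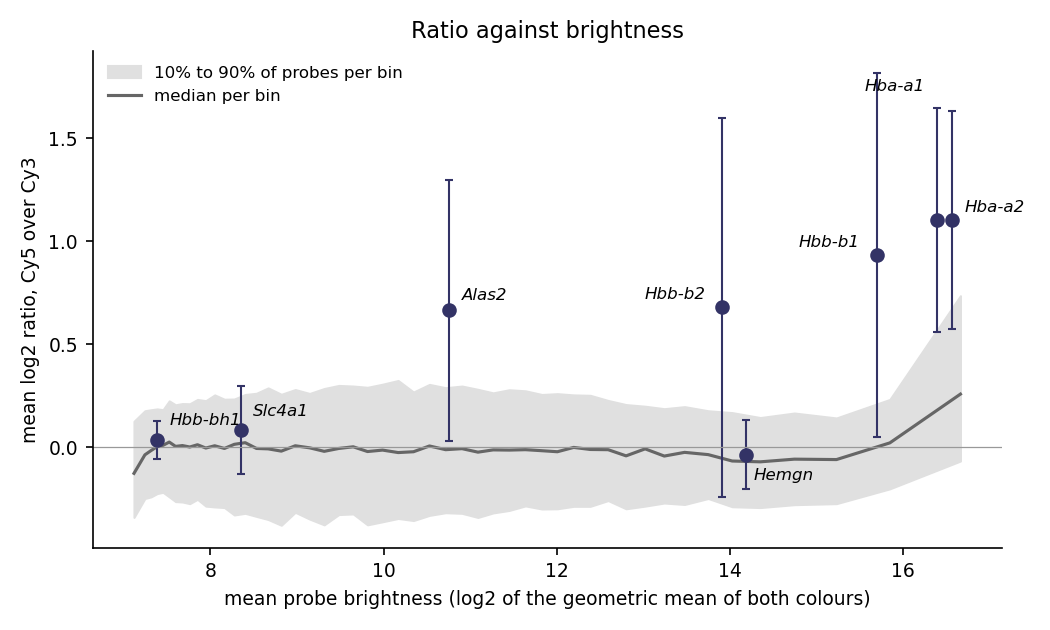
Mean log2 ratio of Cy5 over Cy3 (vertical axis) against mean probe brightness in log2 units (horizontal axis) for the 8 globin and erythroid probes that passed the filter, with bars of 1 SD over 3 arrays. The grey band spans the 10th to 90th percentile of all probes in 50 brightness bins and the line is their median; the line rises at the bright end where Hba-a1 and Hba-a2 lie, while Hbb-b1, Hbb-b2 and Alas2 lie above the band where the line is near 0.

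Adult beta globin had a mean ratio above 0 but did not pass the test, and the 3 arrays differed widely. Hbb-b1 had spot intensities of 48511.5, 26971 and 13401.5 in Cy3 and 127386, 88927 and 110016 in Cy5. Its log2 ratios were 0.29, 0.57 and 1.94, with a mean of 0.93 ± 0.88 (SD, n = 3 arrays), an interval of 0.30 to 1.57 and a limma adjusted p of 0.0547. The Cy3 signal was more than 3 times as bright on array 1 as on array 3, and the Cy5 signals of the 3 arrays were closer together. Hbb-b2 had log2 ratios of -0.15, 0.52 and 1.67, a mean of 0.68 ± 0.92 and an adjusted p of 0.128, so it was slightly brighter in Cy3 on array 1 and brighter in Cy5 on the others. The probe of Hbb-bt, an adult beta gene that is not among the 10, gave -0.06, 0.45 and 1.396 (mean 0.59 ± 0.74, adjusted p = 0.111). All 3 beta probes were thus lowest on array 1 and highest on array 3.

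Averaged over the 3 arrays, probes as bright as the beta probes had ratios near 0. This need not hold on each array. On array 1 the Hbb-b1 ratio, 0.29 as reported, was -0.07 with brightness bins set to 0 and also with processed signals. At the brightness of Hbb-b1 the median log2 ratio of 1017 other probes was -0.01 and 4.43% were called brighter in Cy5. At that of Hbb-b2 it was -0.05 over 2257 probes, and 4.03% were called. Within an array the alpha ratio exceeded the beta ratio (Hba-a1 minus Hbb-b1) by 0.58 on array 1 and 0.14 on array 2 and was lower by 0.22 on array 3. The mean of this difference, 0.17 ± 0.40 (SD, n = 3 arrays), was smaller than its spread.

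Alas2, which encodes the erythroid form of the first enzyme of haem synthesis, followed the order of the beta globins. Its spot intensities were 2182, 884 and 628 in Cy3 and 3784, 2271.5 and 2705.5 in Cy5, all well above background. The log2 ratios were 0.13, 0.51 and 1.36, with a mean of 0.665 ± 0.63 (SD, n = 3 arrays), an interval of 0.19 to 1.14 and a limma adjusted p of 0.0601. Cy3 was again highest on array 1 and lowest on array 3. This probe is of middling brightness (57.5% of the kept probes were dimmer), and the 3605 other probes of like brightness had a median ratio of -0.01.

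**Figure D2:**
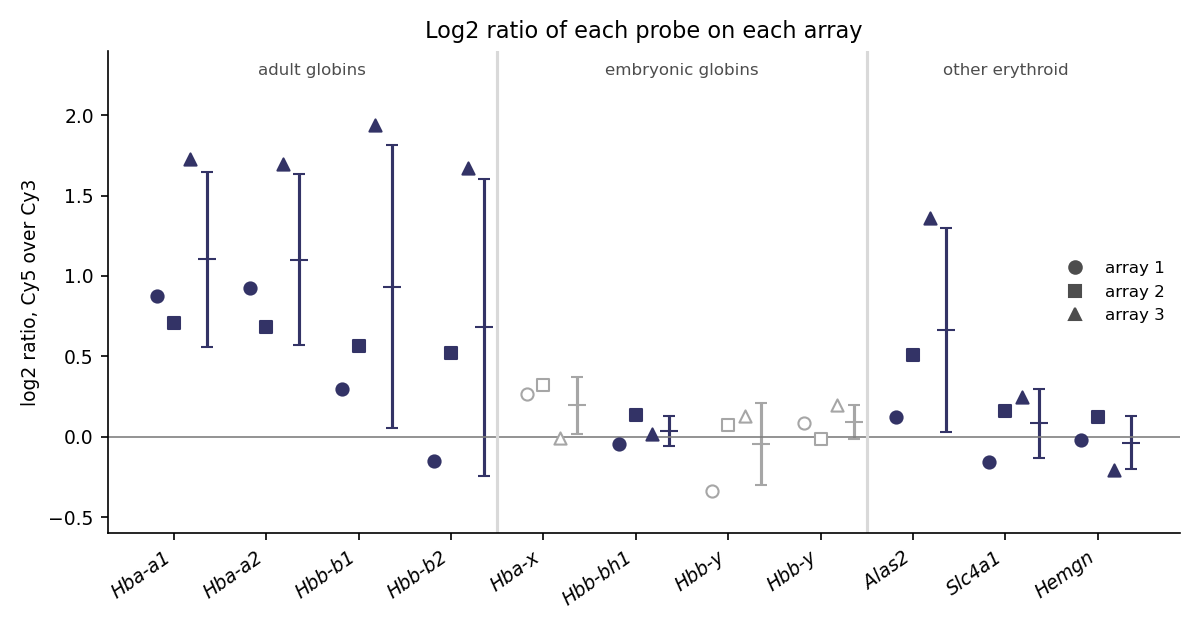
Log2 ratio of Cy5 over Cy3 (vertical axis) for each of the 11 probes, with 1 symbol per array and the mean ± 1 SD over 3 arrays beside it; open grey symbols are probes that did not pass the filter on dim probes. Array 3 gave the largest ratio for the 4 adult globin probes and Alas2, from 1.36 to 1.94, and the embryonic globins, Slc4a1 and Hemgn stayed between -0.34 and 0.32 on all 3 arrays.

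Leaving out 1 array moved these calls. Of the 8 probes that passed the filter, 2 were called brighter in Cy5 and none in Cy3 by limma, against 7.48% and 9.37% of all probes. At an unadjusted p under 0.05 the counts were 5 and 0, against 16.8% and 20.2% of all probes. Without array 1, and again without array 2, 5 were called brighter in Cy5: Hba-a1, Hba-a2, Hbb-b1, Hbb-b2 and Alas2. Of all probes, 5.71% were called brighter in Cy5 without array 1, 6.73% without array 2 and 2.705% without array 3. For Hbb-b1 the mean log2 ratio was 1.25 without array 1 (adjusted p = 0.0385), 1.12 without array 2 (adjusted p = 1.58e-06) and 0.43 without array 3 (adjusted p = 0.0561). Alas2 gave 0.94 without array 1 (adjusted p = 0.0276), 0.74 without array 2 (adjusted p = 0.000244) and 0.32 without array 3 (adjusted p = 0.141). With 2 arrays, limma's moderated variance rests on the other probes even more than with 3, and an adjusted p from it carries little of these probes' own spread. Hba-a1 and Hba-a2 passed in each of the 3 cases, with mean ratios of 0.79 to 1.31.

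The spread of the adult globins and Alas2 lay mainly in Cy3, the channel labelled wild type. On signals normalized within and between arrays, Hba-a1 ranged 2.34-fold over the 3 Cy3 samples and 1.499-fold over the 3 Cy5 samples. Hbb-b1 ranged 3.47-fold in Cy3 and 1.355-fold in Cy5, Hbb-b2 3.03-fold and 1.28-fold, and Alas2 2.99-fold and 1.49-fold. Hbb-bt ranged 2.92-fold and 1.29-fold. The median over all kept probes was 1.12-fold in Cy3 and 1.19-fold in Cy5. These 5 probes of Hba-a1, Hbb-b1, Hbb-b2, Alas2 and Hbb-bt varied more in Cy3 than at least 99.5% of the kept probes did, whereas in Cy5 between 70.0% and 90.9% of the kept probes varied less than they did.

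For Hba-a1 and Hba-a2 every Cy5 sample lay above every Cy3 sample on this scale. Hba-a1 had 16.42, 16.003 and 15.19 in Cy3 and 17.29, 16.71 and 16.91 in Cy5, in log2 units for arrays 1 to 3. For Hbb-b1, Hbb-b2 and Alas2 the channels overlapped, since the Cy3 sample of array 1 reached the range of the Cy5 samples: Alas2 had 11.27, 10.32 and 9.69 in Cy3 and 11.40, 10.83 and 11.05 in Cy5. The 3 samples of a channel also differ in array, and no further array holds the same RNA, so the spread between pups and the spread between arrays cannot be told apart.

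**Figure D3:**
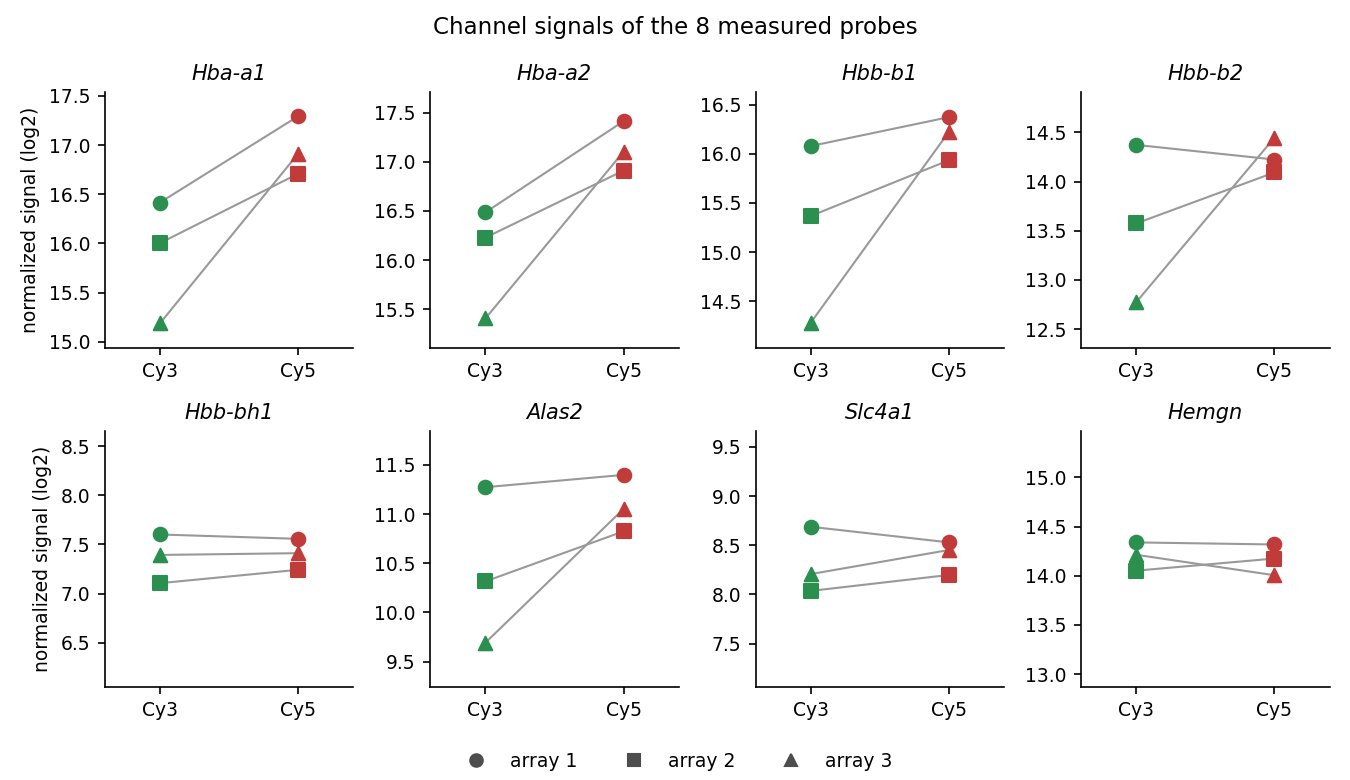
Normalized signal in log2 units (vertical axis, each panel spanning the same number of units) in Cy3 (green, labelled wild type) and Cy5 (red, labelled Brpf1-deficient) for the 8 probes that passed the filter, with a line joining the colours of each array. In the panels of Hba-a1, Hba-a2, Hbb-b1, Hbb-b2 and Alas2 the Cy3 points are spread more widely than the Cy5 points, with array 1 highest and array 3 lowest, and in the panel of Hemgn each colour spans 0.31 log2 units or less.

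The embryonic globins were at or near background. Hba-x, the embryonic alpha-type (zeta) chain, was not well above background in either colour on any array, with intensities of 54 to 73 in Cy3 over backgrounds of 42 to 61 and of 91 to 151.5 in Cy5 over backgrounds of 97 to 152. Of the 2 probes of Hbb-y, the epsilon-type beta chain, one was not above background on any array and the other only in Cy3 on array 1. The ratios of these 3 probes are ratios of signals at background and say nothing of the transcripts' levels. Hbb-bh1, the other embryonic beta-type chain, was well above background in both colours on arrays 1 and 3 and passed the filter. Its intensities were 168, 89 and 119 in Cy3 and 299.5, 163 and 194 in Cy5, its log2 ratios -0.04, 0.14 and 0.02, and its mean 0.04 ± 0.09 (SD, n = 3 arrays, interval -0.13 to 0.21, limma adjusted p = 0.742).

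The adult and embryonic ratios within each array are given side by side as a description only. Over all probes, the 4 adult probes had mean log2 ratios of 0.49, 0.62 and 1.76 on the 3 arrays and the 4 embryonic probes -0.01, 0.13 and 0.09. The difference was 0.495, 0.49 and 1.67, with a mean of 0.885 ± 0.68 (SD, n = 3 arrays). With Hbb-bh1 alone for the embryonic side it was 0.53, 0.48 and 1.74. Since 3 of the 4 embryonic probes did not pass the filter on dim probes, the difference mostly repeats the adult ratio and does not measure adult against embryonic globin. It was given no test.

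The ratios of Slc4a1 had the array order of the beta globin ratios at a much smaller size, and those of Hemgn did not. Slc4a1 had intensities of 354, 176 and 213 in Cy3 and 530, 347 and 428.5 in Cy5, and log2 ratios of -0.16, 0.16 and 0.245. Its mean was 0.08 ± 0.21 (SD, n = 3 arrays, interval -0.14 to 0.30, limma adjusted p = 0.547). Its Cy3 range of 1.57-fold was wider than that of 97.8% of the kept probes. Its Cy3 signal was highest on array 1, as for the adult globins, but lowest on array 2, where theirs was lowest on array 3. Hemgn and Hbb-bh1 had the same Cy3 order as Slc4a1. Array by array, the Alas2 ratio exceeded that of Slc4a1 by 0.28, 0.35 and 1.12.

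Hemgn gave a bright signal with a mean ratio near 0. Its intensities were 16798, 11318 and 13201 in Cy3 and 30026, 24516 and 22037 in Cy5, and 90.02% of the kept probes were dimmer. The probe was thus far brighter than those of Alas2 and Slc4a1, while Gata1 and Klf1 were at background. It is not listed in the authors' deposited table, so its targets could not be looked up there. Whether its signal is that of Hemgn was not tested. The log2 ratios were -0.02, 0.12 and -0.21, with a mean of -0.04 ± 0.17 (SD, n = 3 arrays, interval -0.23 to 0.16, adjusted p = 0.785). The sign of this small mean changed with the processing, being 0.03 with the processed signals and with brightness bins set to 0, and 0.21 with median centring, and it passed in none of them. On array 3, where Hbb-b1 exceeded 0 by 1.94, Hemgn was the lowest of its 3 values, and the 2 probes differed by 2.15 there against 0.32 on array 1.

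Among other haemoglobin genes, Hbq1a, a theta-type gene of the alpha-globin locus, passed the test with a small and even difference (0.30, 0.23 and 0.32, mean 0.29 ± 0.05 (SD, n = 3 arrays), limma adjusted p = 0.035). Only 9.76% of the kept probes had a smaller SD over the arrays. Hbq1b and all 3 probes of Hbb-bh2 failed the filter. Globin-fold proteins that are not made by red cells also passed: Ngb (neuroglobin, of neurons) had 0.49 ± 0.14 (adjusted p = 0.0127), with a second probe at 0.46, and Cygb (cytoglobin) had 0.33 ± 0.13 (adjusted p = 0.0319). Myoglobin (Mb) failed the filter.

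The wider red cell programme was examined with 6 lists of 86 genes, each gene represented by its brightest probe. Of the 61 genes that passed the filter, 10 (16.4%) were brighter in Cy5 and 3 (4.92%) in Cy3, against 7.96% and 9.19% (17.1% in all) of the 23305 targets measured, counting a sequence without a gene symbol as its own target. The median log2 ratio was 0.145 over the 61 genes and -0.01 over all targets. Many defining red cell genes were too dim to measure. Gata1, Klf1, Nfe2 and Gfi1b, transcription factors that drive red cell development, were not well above background in either colour on any array. The same held for Rhag, of the Rh complex. Car1, a carbonic anhydrase, was above it in either colour on 1 array. No probe was named Ahsp, the alpha-globin chaperone.

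Haem synthesis genes are used by every cell. Of 15, 1 was brighter in Cy5, 1 in Cy3 and 13 did not pass, with a median of 0.01. Slc25a39, a mitochondrial carrier, had 0.44 ± 0.18 (SD, n = 3 arrays). Alas1, the housekeeping counterpart of Alas2, had -0.04 ± 0.06, and Fech, which inserts the iron, had 0.17 ± 0.07; neither passed. Slc25a37 (mitoferrin, the mitochondrial iron importer) had 0.22 ± 0.17 at its brighter probe and 0.59 at a second, which passed in the fit of all probes (limma adjusted p = 0.0076). Of 6 measured genes of haem and haemoglobin clearance, Hmox1 (haem oxygenase, which opens the haem ring) was brighter in Cy5 at 0.40 ± 0.21 (adjusted p = 0.0313), with a second probe at 0.32, and 5 did not pass.

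Of 11 measured red cell membrane genes, 2 were brighter in Cy5 and 9 did not pass. Tmod1, which caps actin filaments in the membrane skeleton, had 0.79 ± 0.21 (SD, n = 3 arrays, limma adjusted p = 0.00516), and Gypc, glycophorin C, 0.38 ± 0.17 (adjusted p = 0.0295). Of 18 genes of red cell cytoplasm and maturation, 4 were brighter in Cy5 and 1 in Cy3, with a median of 0.13. Cited4 had 0.73 ± 0.24, Epor (the erythropoietin receptor) 0.54 ± 0.15 and Mkrn1 0.43 ± 0.11. Tfrc, the transferrin receptor through which precursors take up iron, was brighter in Cy3 at -0.30 ± 0.14 (adjusted p = 0.0428), but its other probes gave -0.07 and -0.06 and did not pass.

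Among 10 measured erythroid transcription factors, Tal1 was brighter in Cy3 and Bcl11a in Cy5, and 8 did not pass. Tal1 is required for blood cell formation and had -2.27 ± 0.15 (SD, n = 3 arrays, limma adjusted p = 3.23e-05), a far larger difference than that of the adult globins and in the opposite channel. Bcl11a, which silences embryonic globins and is also a cortical neuron gene, had 0.54 ± 0.14, with a second probe at 0.19 that did not pass.

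**Figure D4:**
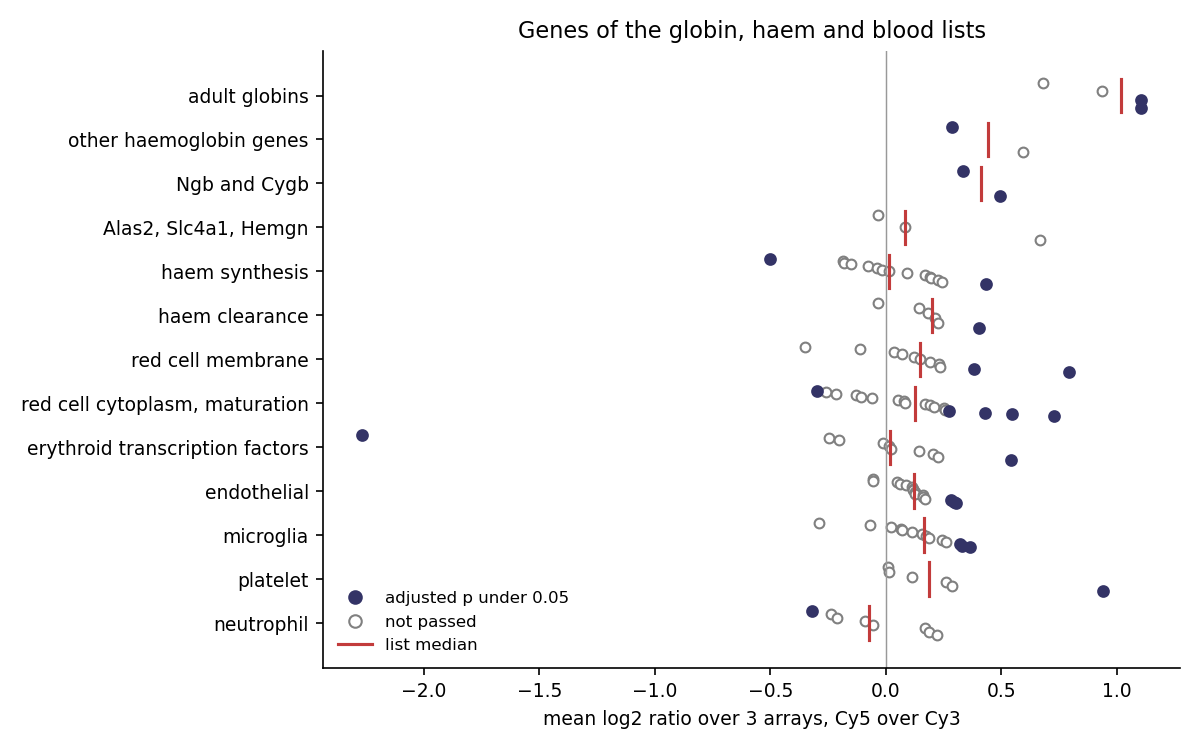
Mean log2 ratio of Cy5 over Cy3 over 3 arrays (horizontal axis) for the measured genes of 13 lists (rows), with filled points for genes at an adjusted p under 0.05, open points for the others and a red bar at each list's median. The adult globins have the highest median of these lists, at 1.02, and Tal1, at -2.27, is the point farthest to the left.

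Markers of the other cells of blood and vessels were measured beside the globins. Of 16 endothelial genes all passed the filter, and 13 did not pass the test and 3 were brighter in Cy5: Egfl7 at 0.29 ± 0.10 (SD, n = 3 arrays), Cldn5 at 0.30 ± 0.14 and Tie1 at 0.28 ± 0.13. Their median was 0.12, and Pecam1 had 0.06 ± 0.08. The summed normalized signal of the list was 79870 to 81280 in Cy3 and 88490 to 97630 in Cy5. This sum hardly varied among the Cy3 samples. Adult globin signal there, summed in the same way over its 4 probes, went from 269600 on array 1 to 107700 on array 3. The endothelial sum mostly follows its brightest genes: Cldn5 had a mean brightness of 15.06, against 13.54 for Egfl7 and 9.78 for Pecam1 in log2 units. It does not measure vessel content. The globin sum counts adult alpha globin on 2 probes. Of 14 microglia genes, 3 were brighter in Cy5, with C1qb at 0.36 ± 0.22 and a list median of 0.17; Aif1 had 0.07 ± 0.12. Their part in the globin ratios was not tested.

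Platelet and neutrophil genes gave single calls. Of 14 platelet genes 6 passed the filter, of which Itgb3, an integrin also made by other cells, was brighter in Cy5 at 0.94 ± 0.19 (SD, n = 3 arrays, limma adjusted p = 0.00218), while Pf4, a platelet chemokine, had 0.01 ± 0.12. The summed platelet signal was 5123 to 5660 in Cy3 and 5722 to 6404 in Cy5. Of 15 neutrophil genes 8 passed the filter and 1 was brighter in Cy3, Csf3r at -0.32 ± 0.09. S100a8 and S100a9, abundant in neutrophils, had -0.20, 0.12 and -0.56, and -0.09, 0.28 and -0.90. On array 3 both were thus brighter in Cy3 while the adult globins were brighter in Cy5. Of 9 genes of plasma proteins 3 passed the filter. One of them, Ttr (transthyretin, which the choroid plexus of the brain also makes), had log2 ratios of -2.60, 1.14 and 0.10. The summed signal of these 3 genes in Cy3 went from 21910 on array 1 to 34320 and 69930 on arrays 2 and 3, the opposite order to adult globin. Ttr was by far the brightest of them, with a mean brightness of 14.69 against 12.48 for Trf and 9.65 for Apoa2 in log2 units. The sum thus mostly follows Ttr and does not describe plasma protein genes in general. Its part in the globin spread was not tested. Albumin (Alb), made by the liver, was not above background on any array, and of 14 lymphocyte genes 4 passed the filter, with a median of 0.17.

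The genes whose 3 log2 ratios lay nearest to those of adult alpha globin (0.90, 0.69 and 1.71, the mean of the Hba-a1 and Hba-a2 probes) were looked up by Euclidean distance. Among the nearest genes with a symbol were Cartpt (distance 0.37), Klhl1 (0.57), Itpka (0.59) and Nts (0.61). Cartpt, which encodes a neuropeptide, had 0.84, 0.53 and 1.38. The distances of Hbb-b1 (0.66), Alas2 (0.87) and Hbb-b2 (1.07) were larger, and those of Slc4a1 (1.89) and Hemgn (2.21) larger again. With 3 arrays such a distance only describes these ratios.

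In the authors' deposited table, 7 of the 11 probes are listed. The log2 fold change there is -1.09 for Hba-a1 and for Hba-a2, -0.925 for Hbb-b1 and -0.68 for Hbb-b2. It is -0.715 for Alas2, -0.17 for Hbb-bh1 and -0.15 for Slc4a1. Each has the opposite sign to the ratio given here. The same holds for all 5557 probes called here, so the sign is not particular to these genes. The adjusted p in the authors' deposited table is 0.24 for both alpha probes, and the smallest in that table is 0.159. The order of the genes by size is nearly that found here, with the alpha genes first and Hbb-b1 next.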

How the data were processed

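The deposited scanner files, 1 per array, hold spot and local background intensity (medians) for Cy3 and Cy5, read by Agilent Feature Extraction 10.7.3.1, per the file headers, without normalization. The deposited processed intensity is background-subtracted and dye-normalized by the scanner software, the deposited log10 ratio is its red over green, and flags mark spots well above background; the processed intensity was used in an alternative only. The authors' deposited table holds p-values, raw and adjusted, beside log2 fold changes, a mean log2 level and 2 kinds of score (t and log-odds); limma was used, per the submitters' processing notes, and the direction of the fold change is not given in the sources used here.

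Medians were background-corrected by normexp with an offset of 50 (limma 3.58.1, R 4.3.3) and normalized by loess within each array, with control spots at weight 0 and 4 to 6 non-uniform spots per array left out. Replicate spots were averaged. Probes well above background on 2 or more arrays, in either colour, were kept (32981). The log2 ratio of Cy5 over Cy3 was compared with 0 in limma (intercept only), by two-sided tests; p-values were adjusted by Benjamini-Hochberg across every kept probe, or for the lists across 23305 targets (1 probe per symbol or, without one, per target sequence). Values of single channels were normalized between arrays by Aquantile. All 3 arrays come from 1 slide and 1 scan. Symbols came from RefSeq accessions (27656 probes) or the authors' table (4082); all 11 member probes were named by accession. The fit was tested on simulated data. The members, lists and tests were chosen with earlier results of these data known. The rule named every probe of the 10 genes, up to 4 genes called in each other list with the smallest adjusted p, the list-defining genes Epor, Tfrc, Hmox1, Pecam1, Aif1, Pf4, S100a8, Alb, Klf1, Gata1 and Ahsp, and the 5 genes nearest to adult alpha globin, of which some are not reported here; Alas1, Fech, Slc25a37, S100a9 and the red cell genes too dim to measure were added after their values were seen. Alternatives varied the background correction, normalization, filter, probe choice, array weights and arrays left out. The lists of pericyte and plasma protein genes and of hypoxia targets gave medians of 0.145, 0.11 and -0.01, with 0, 1 and 2 calls.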

Additional observations from a re-analysis of the deposited data

How the results depend on the processing

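The number of globin and erythroid probes called brighter in Cy5, 2 of 8 as reported, was 0 with plain background subtraction and processed signals. It was 4 with no filter, where 11 probes were tested, and 3 with median centring (Hbb-b1 joined). It was 5 with array weights, where array 1 was weighted least. Leaving out each array in turn gave 2 to 5. The share of all probes called so, 7.48% as reported, was 0.896%, 2.06%, 4.95%, 16.5% and 11.3% in the same order. None was called brighter in Cy3 under any alternative run. Among genes of the 6 haem and red cell lists, 10 were brighter in Cy5 and 3 in Cy3. The counts were 3 and 1 with plain subtraction, 4 and 1 with processed signals, 25 and 1 with median centring, and 17 and 6 with array weights, and with probes above background in both colours on all arrays 5 were brighter in Cy3. Among all targets 7.96% were brighter in Cy5 as reported and 1.83% with plain subtraction. The share was 2.47% with processed signals, 19.2% with median centring and 12.1% with array weights. In Cy3 the shares in the same order were 9.19%, 1.003%, 2.28%, 3.86% and 13.4%. Under plain subtraction, processed signals, median centring and array weights, the list counts thus moved with those of all targets. With signal in both colours on all arrays the share of all targets in Cy3 was 9.43%, hardly changed. Without array 3 the list counts were 7 in Cy5 and 3 in Cy3, while the shares of all targets fell to 3.28% and 4.77%. Calls over all probes were 44.4% towards Cy5 as reported, 80.5% with median centring and 65.3% with plain subtraction, which called 447 of 32590 probes against 5557 of 32981, and array weights called 8079 and leaving out array 3 2195. The cause was not tested.

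Adult minus embryonic globin ranged from 0.46 with processed signals to 1.38 with median centring, and from 0.49 to 1.08 with 1 array left out. The embryonic probes moved as well. With processed signals Hba-x had a mean of 0.44, Hbb-bh1 0.345 and the Hbb-y probes 0.23 and 0.33, against 0.195, 0.037, -0.045 and 0.09 as reported. Hba-x and Hbb-y did not pass the filter on dim probes, so this range also holds changes of signals at background. Requiring signal in both colours on all arrays left no embryonic probe and gave no value. The mean ratio of Hemgn, -0.04 as reported, was 0.034 with processed signals, 0.032 with bins set to 0, 0.21 with median centring and -0.115 to 0.051 with 1 array left out, above 0 only without array 3. That of Hbb-bh1 was -0.013 to 0.077 with 1 array left out, below 0 only without array 2; none of these passed. The reported fit is itself the paired analysis, since each ratio is taken within a pair, and there was no further block to add. Signal over background limits the embryonic globins, Gata1 and Klf1.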
